A study of Mus musculus with 21 samples.

Results

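The transcripts described here are Snhg6, AI506816, Mir686, Adk and Ctsc, 5 genes whose signal in the sciatic nerve of mice was set apart in Pmp22-null animals at postnatal day 4 (P4) and day 60 (P60) alike. They are read by 11 probe sets of the 12422 on the array, namely all those whose only gene symbol in the platform annotation is 1 of the 5, and 10 of the 11 passed a filter on low values. The genes were selected on the measured KO minus WT differences at both ages, so these differences are given below as descriptions, with no test. The change with age within a genotype was not itself used to choose them and is tested, though in KO and WT it comes from the same arrays.

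Nerves were pooled from 4 to 7 mice per array. The groups were mice homozygously null for Pmp22 (KO), mice with a Pmp22 transgene (TG), mice with the Trembler mutation in Pmp22 (TR) and wild type mice (WT). At P60 there were 2 arrays each of KO, TG and TR and 3 of WT, and at P4 there were 3 arrays of every group. The labels call the WT mice a mixed background and give no background strain for the mutants, so Pmp22 genotype and background cannot be told apart here. A whole nerve pool holds several cell types, and fewer cells of a type and less RNA per cell cannot be told apart. Values are the authors' model-based expression index, which sums up the probes of a probe set on a linear scale and can fall below 0. Values under a floor of 54.7, the 20th percentile of the whole table, were raised to it before log2 was taken, and a change in which a whole group lay at the floor is a bound.

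Pmp22 encodes a membrane protein of compact myelin that Schwann cells make in large amounts, and its loss, excess or point mutation disturbs myelination of peripheral nerve. The 5 transcripts have no common pathway in textbook knowledge. Snhg6 is a noncoding host gene of small nucleolar RNA, the guide RNAs of ribosomal RNA modification. Mir686 is a microRNA gene, Adk encodes adenosine kinase, which returns adenosine to AMP, and Ctsc encodes cathepsin C, a lysosomal dipeptidyl peptidase that activates serine proteases of immune granules. AI506816 is an expressed sequence for which no role is given here.

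The sequence the Mir686 symbol stands for, and the bases just before the annotated starts of the 3 members with an entry, are shown because they say what the symbols point to. They come from RefSeq (GRCm38.p6), and the array values carry no genome build. The mature microRNA lies at chr14:54616746-54616767 on the minus strand, and capitals mark its seed, bases 2 to 8.
mmu-miR-686: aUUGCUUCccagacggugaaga
Of 1738 mature microRNAs in the table, 2 have this seed, mmu-miR-686 among them. RefSeq places Mir686 inside Psmb5, a proteasome subunit gene, so a long probe target at this position can also belong to Psmb5 RNA, and probe sequences were not analysed here.

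In the 250 bases before each start, capitals mark matches on either strand. The letters searched were GGGCGG for the GC box. The CCAAT box is spelled by its name, and TCACNCCAC is a sterol element.
AI506816, chr5:23712668-23712917, minus strand: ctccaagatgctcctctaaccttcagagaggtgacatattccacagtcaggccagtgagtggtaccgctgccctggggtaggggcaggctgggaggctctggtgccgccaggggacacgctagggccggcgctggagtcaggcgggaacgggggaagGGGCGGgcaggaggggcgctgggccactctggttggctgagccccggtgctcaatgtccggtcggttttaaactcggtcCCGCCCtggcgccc
Adk, upstream start, chr14:21052324-21052573, plus strand: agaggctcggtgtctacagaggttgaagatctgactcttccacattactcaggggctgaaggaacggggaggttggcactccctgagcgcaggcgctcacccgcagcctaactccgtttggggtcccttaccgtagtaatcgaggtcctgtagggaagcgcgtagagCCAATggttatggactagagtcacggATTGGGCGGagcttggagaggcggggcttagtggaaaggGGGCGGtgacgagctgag
Adk, downstream start, chr14:21075902-21076151, plus strand: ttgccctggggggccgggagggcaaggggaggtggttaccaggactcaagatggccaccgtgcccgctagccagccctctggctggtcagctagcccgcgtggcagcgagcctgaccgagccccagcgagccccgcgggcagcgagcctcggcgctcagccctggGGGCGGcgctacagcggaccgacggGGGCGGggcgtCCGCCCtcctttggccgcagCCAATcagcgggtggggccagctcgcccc
Ctsc, chr7:88277835-88278084, plus strand: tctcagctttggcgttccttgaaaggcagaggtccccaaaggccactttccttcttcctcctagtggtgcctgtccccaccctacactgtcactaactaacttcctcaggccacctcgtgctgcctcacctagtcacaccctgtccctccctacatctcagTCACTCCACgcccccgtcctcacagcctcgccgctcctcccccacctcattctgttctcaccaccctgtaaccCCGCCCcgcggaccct
All 4 windows held a GC box, as did 32.7% of 32851 promoters of the same length, and both Adk windows held a CCAAT box, as did 33.8%. In the upstream Adk window a CCAAT box on the opposite strand overlaps a GC box. The sterol element was in the Ctsc window only, 89 bases before the start, and in 1.05% of all promoters. The EGR letters GCGTGGGCG (0.536% of promoters), the SOX letters ACAAAG (16.5%) and TATAAA (12.4%) were in none of the 4 windows. The motif letters were chosen after the sequences and values had been seen, and a match is a description of letters, not a site.

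On the whole series, array medians of the index ran from 177.4 to 209.6, and the number of arrays limits the precision. Pmp22 itself read 4797 to 5680 in P60 KO against 6732 to 7162 in P60 WT, and 4839 to 5424 in P4 KO against 6840 to 7682 in P4 WT. The log2 change of this brighter of its probe sets was -0.40 at P60 (limma adjusted p = 0.0347) and -0.49 at P4 (limma adjusted p = 0.0605), and which part of the gene it covers is not analysed here. The dimmer, 161442_at, read 47.4 to 71.4 in P60 KO against 89.6 to 145 in P60 WT (log2 -0.94, limma adjusted p = 0.0123). At P4 it read 38.0 to 40.2 in KO, all under the floor, against 97.4 to 106 in WT, lower by at least 0.90 (limma adjusted p = 0.0654). In P60 TR it was lower than in WT by at least 1.13 (limma adjusted p = 0.00656). Over all tested probe sets, the first principal component (36.8% of the variance) separated the ages. On the second (16.6%) the second P60 KO array scored -60.2 and the remaining arrays between -18.7 and 27.1, so P60 KO values of the member probe sets are also given without it. Without that array limma called 183 probe sets in P60 KO against WT, against 1568 with it. Summed Schwann cell and nerve markers (7 tested, Pmp22 among them, none at the floor in any group) were 16256 to 17779 in P60 KO against 18371 to 19973 in P60 WT, and 14857 to 16350 in P4 KO against 18277 to 18787 in P4 WT. Without Pmp22 the remaining 6 summed to 11459 to 12099 in P60 KO against 11579 to 13207 in P60 WT, overlapping, and to 10017 to 10992 in P4 KO against 11018 to 11694 in P4 WT.

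For each of the 5 genes, 1 probe set kept KO and WT arrays apart at both ages. Signal was lower in KO for Snhg6, AI506816, Mir686 and Ctsc and higher for Adk, as the plot of index by array shows. For comparison, 1.87% of the 10994 tested probe sets were lower in KO with no overlap at both ages, and 1.85% were higher. The separation was used to choose the genes, so nothing is read from these shares. The other 6 probe sets of the same genes did not show it. For 4 of the 5 probe sets, all but that of Ctsc, the 5 KO arrays also lay on 1 side of all 16 arrays of the other groups. Of all tested probe sets 6 lay below (0.0546%) and 4 above (0.0364%) in this way, and 4 of these 10 are members. With the further demand of over 1 on the log2 scale at both ages, KO and WT were apart in 0.246% of tested probe sets, 4 of them members. The choice of genes favours both counts of members, so nothing is read from them.

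**Figure D1:**
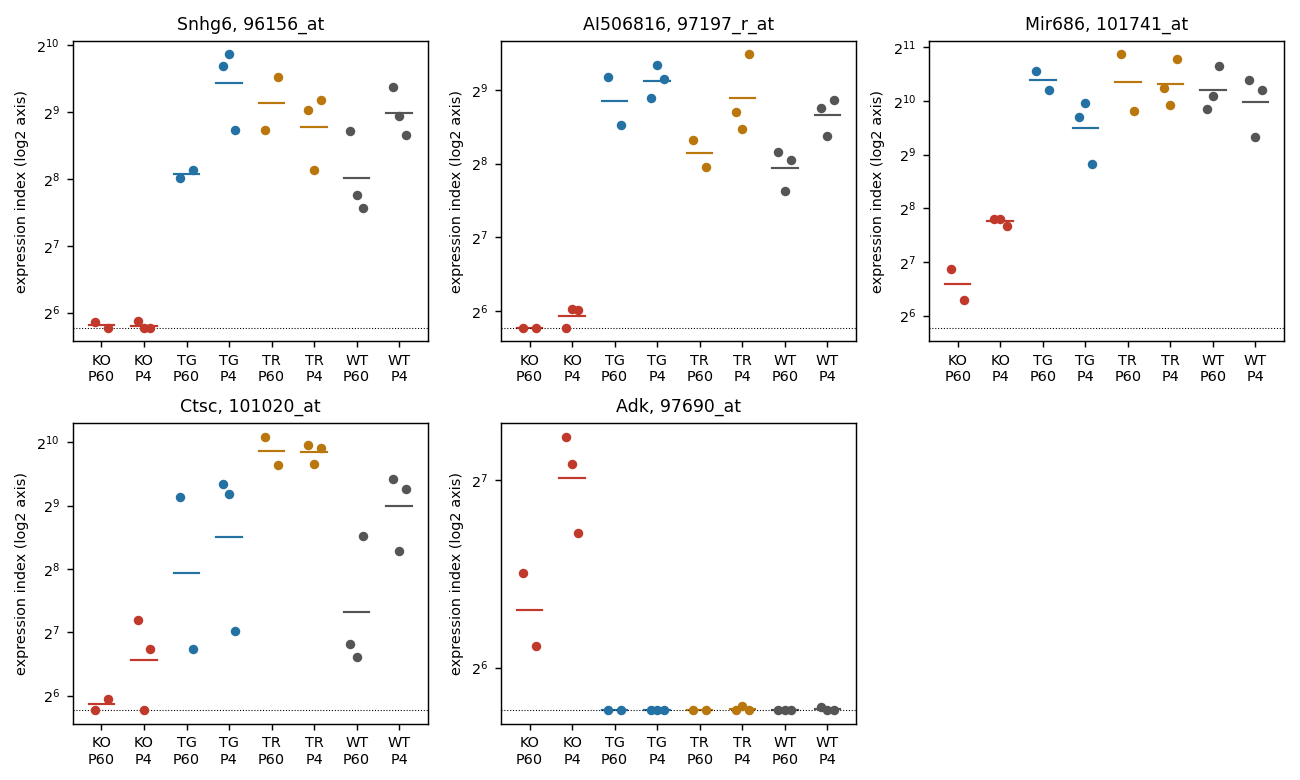
Expression index (log2 axis, values under the floor drawn at the floor, dotted line) of the probe set of each gene that kept KO and WT apart at both ages. Points are arrays and bars are means of log2 values. KO points lie below all others for Snhg6 (45.1 to 58.5, against 190 to 932), AI506816 and Mir686 and above all others for Adk, while Ctsc KO points overlap those of TG and P60 WT across ages.

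Snhg6 was close to the floor in every KO array. Probe set 96156_at read 58.1 and 45.1 in P60 KO, against 421, 217 and 190 in P60 WT. It read 58.5, 47.5 and 51.3 in P4 KO, against 662, 490 and 402 in P4 WT. The KO arrays thus sat together at both ages, well under the lowest array of any other group. The log2 difference, KO minus WT, was -2.20 ± 0.39 (SE) at P60 and -3.18 ± 0.35 at P4, understated since 1 of 2 P60 and 2 of 3 P4 KO arrays were at the floor. Without the second P60 KO array it was -2.15 at P60. TG nerves read 259 and 282 at P60 and 828, 932 and 426 at P4, and TR nerves 426 and 738 at P60 and 522, 282 and 582 at P4. Both mutants overlapped WT at P4, and at P60 TR lay above WT without overlap while TG overlapped it. The second Snhg6 probe set, 161635_f_at, read 20.1 to 74.0 with 5 of 21 arrays above the floor, and its groups overlapped, so it carried too little signal to show a difference of this kind.

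AI506816 had the same outline. Probe set 97197_r_at read 13.0 and 25.4 in P60 KO, against 285, 198 and 266 in P60 WT, and 43.5, 65.0 and 64.4 in P4 KO, against 433, 332 and 465 in P4 WT. The highest KO array, 65.0, was under the lowest array of the other groups, 198. KO was lower by at least 2.17 on the log2 scale at P60, with both KO arrays at the floor (the same -2.17 without the second), and the difference at P4 was -2.73 ± 0.25. In TG the probe set read 576 and 369 at P60 and 477, 650 and 565 at P4, above WT without overlap at both ages (log2 0.90 ± 0.28 and 0.46 ± 0.25). Of all tested probe sets, 1.13% were higher in TG than in WT at both ages in this way. TR read 320 and 249 at P60 and 417, 355 and 715 at P4 and overlapped WT at both. The other probe set, 93180_at, read 15.7 to 48.2, never above the floor, and was not tested.

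Probe set 101741_at was the only one annotated to Mir686, and whether it read RNA of Mir686 or of Psmb5 was not examined. It read 117 and 78.7 in P60 KO, against 919, 1095 and 1605 in P60 WT. It read 223, 223 and 203 in P4 KO, against 1341, 643 and 1180 in P4 WT. No KO array was at the floor, so these differences are measured on both sides: log2 -3.61 ± 0.39 at P60 and -2.22 ± 0.35 at P4. Without the second P60 KO array the P60 value was -3.32. TG read 1513 and 1178 at P60 and 836, 992 and 453 at P4, and TR read 1868 and 904 at P60 and 1205, 970 and 1758 at P4, all overlapping WT.

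Psmb5, which holds Mir686, was looked at after these values had been seen, and 1 of its 2 probe sets was lower in P60 KO, as that of Mir686 was. Probe set 160559_at averaged 548 ± 8.67 in P60 KO (SD, n = 2) against 288 ± 27.3 in P60 WT (SD, n = 3), higher by 0.93 ± 0.26 (SE) on the log2 scale. At P4 it averaged 443 ± 97.1 in KO against 317 ± 38.9 in WT, higher by 0.47 ± 0.24. Probe set 101558_s_at was lower in P60 KO, at 44.7 to 228 against 486 to 903 in P60 WT (log2 -2.53 ± 0.52). At P4 it read 587 to 757 in KO against 287 to 650 in WT (0.47 ± 0.46). Both Psmb5 probe sets were thus opposite in sign to 101741_at at P4, and they disagreed with each other at P60.

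Adk had 3 probe sets, and the one that was set apart was at or near the floor outside KO. Probe set 97690_at read 90.6 and 69.3 in P60 KO, against 30.3, 32.7 and 24.7 in P60 WT, and 150, 136 and 105 in P4 KO, against 55.2, 25.5 and 21.8 in P4 WT. All TG arrays (at most 29.7) and TR arrays (15.5 to 55.6) were in the range of the dim WT arrays. KO was higher by at least 0.53 on the log2 scale at P60 and by 1.23 ± 0.11 at P4, where 2 of 3 WT arrays were at the floor. Outside KO the probe set exceeded the floor only at 55.2 in P4 WT and 55.6 in P4 TR, so it was measured mainly where it was high. Without the second P60 KO array the P60 value was 0.73.

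The brightest Adk probe set, 93512_f_at, read 1057 and 1409 in P60 KO, against 1226, 1247 and 1456 in P60 WT, and 930, 1022 and 915 in P4 KO, against 668, 577 and 862 in P4 WT. KO lay above WT at P4 (log2 0.46 ± 0.18) and overlapped it at P60 (-0.10 ± 0.20, and -0.30 without the second P60 KO array). The third, 101647_at, read 17.3 and 128 in P60 KO, against 51.5, 57.6 and 46.2 in P60 WT, and 85.4, 93.4 and 64.2 in P4 KO, against 12.9, 50.3 and 59.1 in P4 WT. Its log2 difference was 0.59 ± 0.29 at P60, where the 2 KO arrays lay on both sides of WT, and 0.51 ± 0.26 at P4. Without the second P60 KO array the P60 value was -0.02. So 1 of 3 Adk probe sets was apart at both ages, and at P4 all 3 had higher readings in KO.

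For Ctsc the probe sets gave opposite signs. Probe set 101020_at read -40.2 and 61.8 in P60 KO, against 113, 97.2 and 369 in P60 WT, and 146, 5.37 and 107 in P4 KO, against 686, 313 and 616 in P4 WT. KO arrays were below WT at each age, but 4 arrays of the other groups were at or below the highest KO array, 146. The log2 difference was -1.45 ± 0.72 at P60 (-1.54 without the second P60 KO array) and -2.43 ± 0.65 at P4, with 1 KO array at the floor at each age. In TR the probe set read 1088 and 796 at P60 and 997, 804 and 964 at P4, above WT without overlap at both ages (2.55 ± 0.72 and 0.85 ± 0.65). Of all tested probe sets, 1.55% were higher in TR than in WT at both ages in this way. TG read 559 and 107 at P60 and 647, 579 and 129 at P4 and overlapped WT.

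Probe set 161251_f_at of Ctsc went with it at P4. It read 22.6 and 126 in P60 KO, against 90.8, 89.0 and 175 in P60 WT, and 68.8, 16.1 and 71.8 in P4 KO, against 260, 142 and 265 in P4 WT. KO lay below WT at P4 (log2 -1.73 ± 0.44) and on both sides of it at P60 (-0.43 ± 0.49). Without the second P60 KO array the P60 value was -1.04.

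The brightest Ctsc probe set, 101019_at, was higher in KO at P4. It read 775, 791 and 840 in P4 KO, against 554, 223 and 368 in P4 WT, a log2 difference of 1.17 ± 0.31. It read 296 and 189 in P60 KO, against 254, 154 and 295 in P60 WT (0.06 ± 0.34, and 0.39 without the second P60 KO array), where the arrays overlapped. In TG it read 615 and 645 and in TR 713 and 436 at P60, all above P60 WT. The label of a lower Ctsc signal in KO at both ages therefore held for 101020_at, for P4 alone with 161251_f_at, and at neither age with 101019_at. Suffixes _f, _s and _r mark probe sets that can also pick up related transcripts, so those values are uncertain in that respect.

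**Figure D2:**
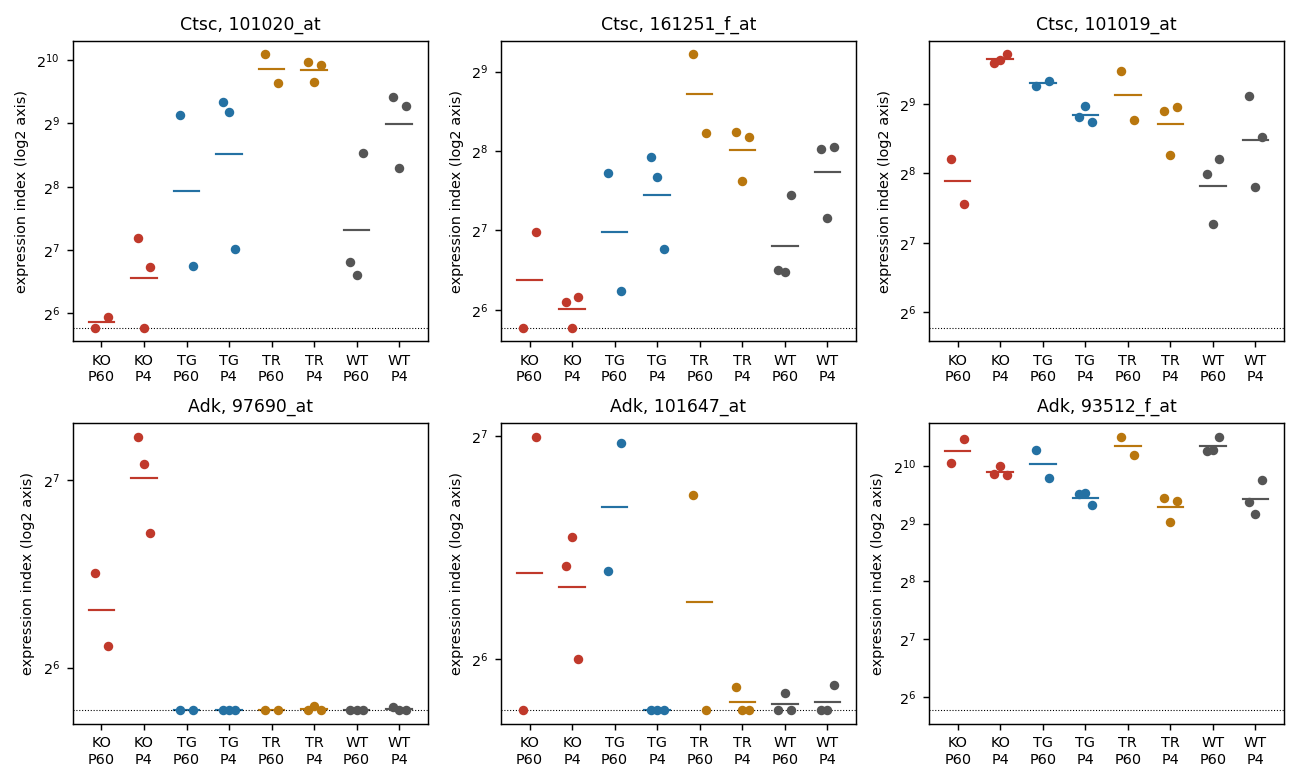
Expression index (log2 axis, floor as dotted line) of the 3 probe sets of Ctsc and the 3 of Adk, drawn by array with means of log2 values as bars. P4 KO points lie below P4 WT for Ctsc 101020_at and 161251_f_at and above them (775 to 840 against 223 to 554) for 101019_at.

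The comparisons of KO, TG and TR with WT share the WT arrays. The KO offset (KO minus WT, signed) at P60 less that at P4 is built from the differences that chose the genes, and is a description with no test. It was 0.98 for Snhg6 96156_at, 0.56 for AI506816 97197_r_at and 0.97 for Ctsc 101020_at, all with the more negative offset at P4 after flooring. For AI506816 both P60 KO arrays were at the floor, and for Ctsc 1 KO array at each age was. The direction for these genes therefore rests on the floor. Before flooring, mean AI506816 readings were 19.2 in KO against 250 in WT at P60, and 57.6 against 410 at P4. Those of Ctsc 101020_at were, in the same order, 10.8 against 193 and 85.9 against 538. For Mir686 101741_at the offset at P60 less that at P4 was -1.39, with the more negative offset at P60. For Adk 97690_at it was -0.70, with the larger offset at P4.

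**Figure D3:**
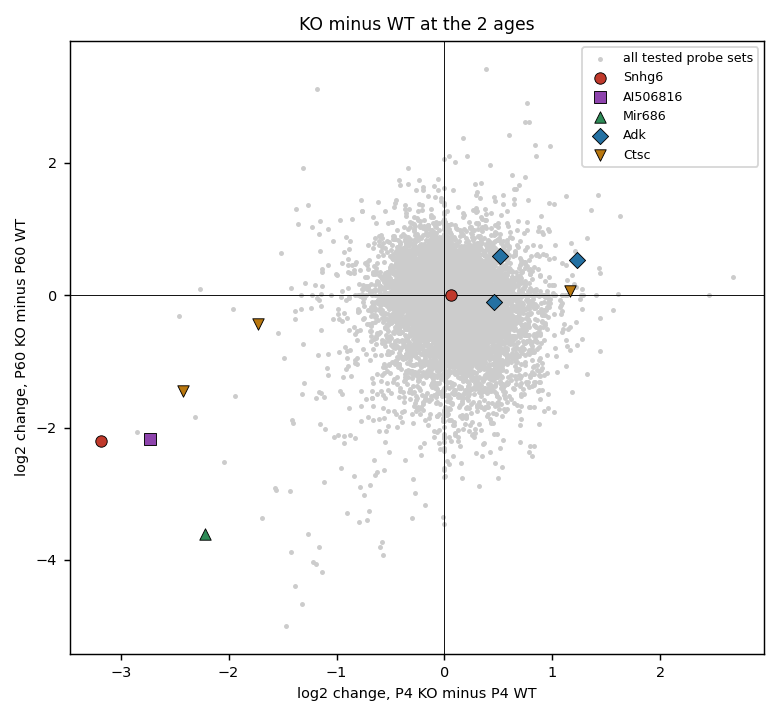
Log2 change of KO minus WT at P60 (vertical axis) against the same at P4 (horizontal axis) for all tested probe sets (grey) and the 10 tested member probe sets (coloured by gene). Snhg6 96156_at (-2.20, -3.18), AI506816 97197_r_at (-2.17, -2.73) and Mir686 101741_at (-3.61, -2.22; the P60 value, then the P4 value) lie at the lower left, away from the other probe sets of the same genes.

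No scan day held KO and WT arrays of the same age. With scan day as a fixed block, which links the groups through other arrays, KO minus WT at P60 was -1.55 for Snhg6 96156_at, -1.83 for AI506816 97197_r_at, -2.14 for Mir686 101741_at, 0.09 for Adk 97690_at and 0.29 for Ctsc 101020_at. At P4 the same values were -3.00, -2.65, -2.17, 0.94 and -3.89. So the Ctsc offset at P60 turned its sign in this fit and the Adk one came near 0. The other Ctsc probe sets moved too, 161251_f_at to 1.17 at P60 and 101019_at to 0.64, and Adk 93512_f_at to 0.17. With scan day as a random block all 5 kept their direction at both ages. Scan day 4 held 2 P4 KO and 2 P4 TG arrays, a pairing picked after the values had been seen. Within it, KO minus TG was -3.96 for Snhg6 96156_at, -3.22 for AI506816 97197_r_at, -2.03 for Mir686 101741_at, 1.38 for Adk 97690_at and -2.78 for Ctsc 101020_at. The P4 KO arrays also served to choose the genes, and the same gap was not counted over all tested probe sets. These values are therefore a description, and nothing is read from them about scan day.

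Neighbouring genes were read as a measure of position. The members lie on chromosomes 1, 5, 7 and 14, with Mir686 and Adk both on chromosome 14, and Pmp22 lies on chromosome 11. The 5 measured genes on either side of each member, 50 in all, had a median KO minus WT of -0.12 at P60 and 0.08 at P4, against -0.02 and 0.02 over all tested probe sets. Of the 50, 8 passed the limma threshold at P60, where 14.3% of all tested probe sets did. At P4, 0 passed (0.355% of all). Of the 50, 1 kept KO and WT apart without overlap at both ages. Over all tested probe sets 1.87% were lower and 1.85% higher in KO in this way. That neighbour was Reln, an extracellular glycoprotein gene beside AI506816, at 0.67 at P60 and 0.58 at P4, higher in KO where AI506816 was lower. A dimmer probe set of Orc5, an origin recognition subunit gene also near AI506816, was higher without overlap as well (0.28 and 0.16). The neighbours of Snhg6 ran from -0.68 to 0.21 at P60 and from -0.50 to 0.94 at P4, and those of Ctsc from -1.21 to 0.48 and from -0.82 to 0.75. Around Pmp22, 20 neighbours had medians of 0.02 at P60 and 0.10 at P4. They ran from -3.43 (Myh1) to 0.54 at P60 and from -1.05 to 0.34 at P4, with 2 called at P60 and 0 at P4. Of these 20, 1 kept KO and WT apart at both ages, Zswim7 (0.23 at P60 and 0.14 at P4), beside the same shares over all tested probe sets. Nothing is read from these counts of 1.

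**Figure D4:**
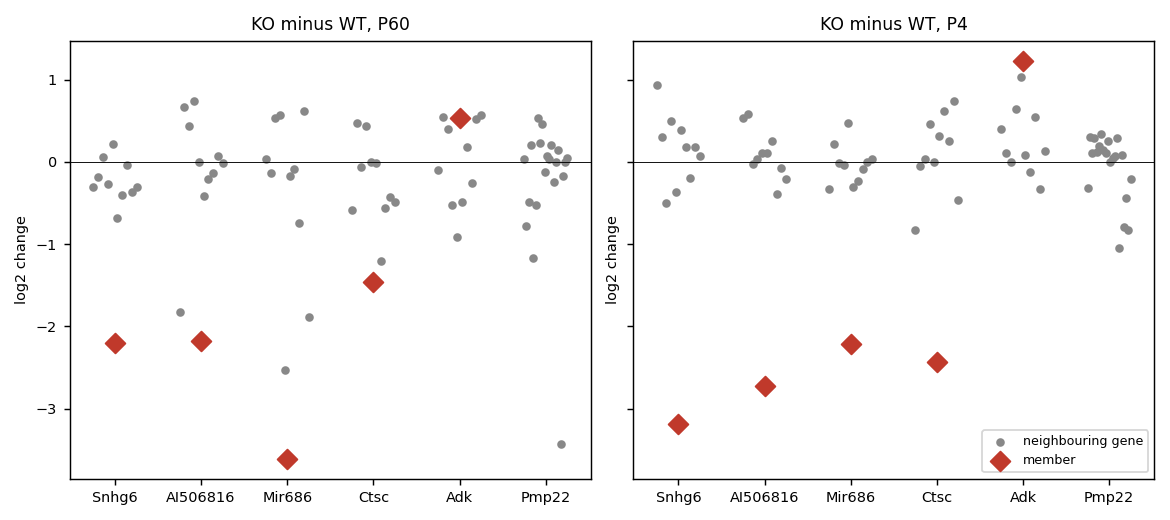
Log2 change of KO minus WT at P60 (left) and P4 (right) for the measured genes on either side of each member and of Pmp22 (grey, brightest probe set of each gene) and for the set-apart probe set of the member (red, none for Pmp22). At P4 the neighbours of Snhg6, AI506816, Mir686 and Ctsc lie between -0.82 and 0.94, above the members (-3.18 to -2.22).

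Of the tests of age within a genotype, 3 of the 10 tested member probe sets passed in KO, where 28.9% of all tested probe sets did. Of these, Adk 97690_at lay at or just above the floor outside KO and is described without its p. In TG 1 of 10 passed (11.1% of all), in TR 1 of 10 (12.0%) and in WT 1 of 10 (14.9%). These shares are near those of the whole array or rest on 1 probe set.

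The Adk probe set 93512_f_at rose with age in WT and in TR. The WT readings of 1226, 1247 and 1456 at P60 against 668, 577 and 862 at P4 gave a log2 change of 0.91 ± 0.18 (limma adjusted p = 0.00163), which held without any 1 array. In TR the readings were 1454 and 1167 at P60 against 698, 523 and 671 at P4, a log2 change of 1.06 ± 0.20 (limma adjusted p = 0.00218). With scan day as a fixed block neither passed (0.52, adjusted p = 0.282 in WT, and 0.66, adjusted p = 0.588 in TR), and the TR call was also lost in a fit of the compared groups alone (adjusted p = 0.103). In KO the change was 0.35 ± 0.20 (limma adjusted p = 0.191), which passed after quantile scaling (0.49, adjusted p = 0.0429), and in TG 0.58 ± 0.20 (limma adjusted p = 0.0676). The KO change less the WT change was -0.56, which equals the KO offset at P60 less that at P4 and is a description with no test.

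In KO, Ctsc 101019_at fell with age to 296 and 189 at P60, against 775, 791 and 840 at P4. The log2 change was -1.76 ± 0.34 (limma adjusted p = 0.00125), and -1.44 without the second P60 KO array, and it missed the threshold when scan day was a fixed block (adjusted p = 0.0617). The age change of Adk 97690_at in KO was -0.70 ± 0.13 on the log2 scale, given as a description. Mir686 101741_at fell by 1.17 ± 0.39 in KO (limma adjusted p = 0.0311). It missed the threshold without any 1 of the P4 KO arrays, without the second P60 KO array (-0.88, adjusted p = 0.282), with no filter on dim probe sets (adjusted p = 0.0527) and when scan day was blocked, either fixed (-0.21, adjusted p = 0.736) or random (-0.84, adjusted p = 0.122). In WT the same probe set changed by 0.22 ± 0.35 (limma adjusted p = 0.738).

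Snhg6 96156_at fell with age in TG, by 1.35 ± 0.39 on the log2 scale (limma adjusted p = 0.0315). The call was lost without either P60 TG array, without the first or the second P4 TG array (adjusted p from 0.0956 to 0.172) and in 3 other settings. In WT its change was -0.97 ± 0.35 (limma adjusted p = 0.0715) and in TR 0.35 ± 0.39 (limma adjusted p = 0.614). In KO, where 3 of the 5 arrays were at the floor and the others just above it, it was 0.01 ± 0.39. For AI506816 97197_r_at the WT change was -0.72 ± 0.25 (limma adjusted p = 0.0643). Both WT values passed after quantile scaling of the arrays (adjusted p = 0.0373 for Snhg6 and 0.0268 for AI506816) and after median scaling. In KO AI506816 97197_r_at changed by -0.16 ± 0.28 (limma adjusted p = 0.718), with both P60 arrays at the floor. With the floor at the 10th percentile its KO change was -1.05 (adjusted p = 0.0132). In TR it changed by -0.75 ± 0.28 (limma adjusted p = 0.0924), which passed after quantile scaling (-0.84, adjusted p = 0.0451). In TG the change was -0.28 ± 0.28 (limma adjusted p = 0.606).

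Genes of the members' own pathways were read from lists that are not lists of members. The adenosine and methionine cycle list holds the partners of Adk, such as the deaminase, nucleotidases, transporters and S-adenosylhomocysteine hydrolase, and 20 of its 29 genes were tested. In P60 KO against WT, 4 fell and 0 rose, with a median of -0.25 (all tested probe sets -0.02). Over all tested probe sets 14.3% were called in P60 KO, 1235 lower and 333 higher (947 and 629 after quantile scaling). The 4 list genes included Pnp, which splits purine nucleosides (-2.59 ± 0.50, limma adjusted p = 0.00333), and Adsl, an enzyme of purine synthesis (-1.10 ± 0.25, limma adjusted p = 0.00842). Adssl1, the muscle isozyme of adenylosuccinate synthase, was lower by at least 2.04 (limma adjusted p = 4.11e-05). It was at the floor in every P60 KO array, so leaving out 1 of them cannot change this bound. When the second P60 KO array was left out, 1 of the 20 was called, Adssl1 (-2.04, adjusted p = 0.00166). In P60 TG 3 fell and in P60 TR 2 fell, Adssl1 and Ahcy in both. Over all tested probe sets limma called 3.8% in P60 TG and 4.7% in P60 TR. Ahcy encodes the hydrolase that gives adenosine, and its probe set 96025_g_at changed by -0.83 ± 0.16 in P60 TG (limma adjusted p = 0.00568) and by -0.71 ± 0.16 in P60 TR (limma adjusted p = 0.0135). The other Ahcy probe sets were not called in either. For 96024_at the changes were -0.82 in P60 TG (limma adjusted p = 0.195) and -1.11 in P60 TR (limma adjusted p = 0.0553). For 96026_at they were -0.27 (limma adjusted p = 0.882) and -0.14 (limma adjusted p = 0.957). At P4, limma called 0 of the 20 in KO, with 2 at an unadjusted p under 0.05. Skeletal muscle markers moved with the Adssl1 values: their summed index (8 tested, none at the floor in any group) was 2399 to 4917 in P60 KO, 5430 to 10551 in P60 TG and 2811 to 4838 in P60 TR, against 14047 to 21094 in P60 WT. The part of muscle in these results was not tested.

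Lysosomal proteases and their inhibitors are the class of Ctsc, and 15 of 18 listed genes were tested. In P60 KO against WT 6 fell and 0 rose (median -0.26, beside the 14.3% called and the lean to lower values over all tested probe sets), among them Ctsf (-1.46 ± 0.28, limma adjusted p = 0.0032), Ctsl (-1.52 ± 0.31, limma adjusted p = 0.00461) and Ctsk (-1.29 ± 0.36, limma adjusted p = 0.0252), all cysteine cathepsins. In the fit that left out the second P60 KO array, limma called 0 of the 15, with 2 at an unadjusted p under 0.05 and a median of -0.15. In P60 TG and P60 TR limma called 0 of 15, with 4 at an unadjusted p under 0.05 in each, and in P4 KO 0 with 0. With age 7 of the 15 rose in TR and 4 rose in WT, with no fall in either, where 12.0% and 14.9% of all tested probe sets were called. Macrophage markers (12 tested, none at the floor in any group) summed to 2756 to 3069 in P60 KO, 2251 to 3850 in P60 TG and 4208 to 5631 in P60 TR, against 3666 to 5048 in P60 WT, with median changes of -0.57, -0.36 and 0.11. At P4 they summed to 2861 to 2976 in KO against 2563 to 3001 in WT, overlapping. Their part in the Ctsc and cathepsin values was not tested.

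Among the serine proteases that Ctsc activates, 11 of 16 were tested, and 2 fell in P60 KO against WT, both of mast cells. Over all tested probe sets limma called 14.3% in P60 KO, 3.8% in P60 TG and 4.7% in P60 TR. Tpsb2, a tryptase, changed by -0.54 ± 0.13 (limma adjusted p = 0.0132), and Mcpt4, a chymase, was lower by at least 0.51 (limma adjusted p = 0.00423), since it was at the floor in every group but P60 WT. In P60 TR both fell too and in P60 TG Mcpt4 fell. Of 6 tested mast cell markers, which include both genes, 3 fell in P60 KO (median -0.26) and 3 in P60 TR, the additional one being Cpa3, a carboxypeptidase (-1.03 ± 0.32, limma adjusted p = 0.0399 in P60 KO). Without the second P60 KO array the Cpa3 change was -0.89. In P60 TG 1 marker fell, Mcpt4, and 1 rose, Kit (1.72 ± 0.37, limma adjusted p = 0.0117). The 6 markers summed to 4177 to 4363 in P60 KO against 4125 to 5174 in P60 WT, and their part in the protease values was not tested. Of the 11 proteases limma called 0 without the second P60 KO array, with 2 at an unadjusted p under 0.05. In P4 KO limma called 0 of the 11, with 1 at an unadjusted p under 0.05.

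The snoRNA host and 5' terminal oligopyrimidine list groups genes of Snhg6's kind, hosts of small nucleolar RNAs and translation factors, and 15 of 22 were tested. With age 8 fell in KO, 2 in TG, 5 in TR and 4 in WT, and 2 rose in TR. Limma called 28.9% of all tested probe sets with age in KO, 11.1% in TG, 12.0% in TR and 14.9% in WT. The list's median age change in KO was -0.74, and -0.56 without the second P60 KO array. Pabpc1, a poly(A) binding protein, fell in all 4 genotypes, at -1.28 ± 0.22 in KO (limma adjusted p = 0.000575), -0.88 ± 0.22 in TG (limma adjusted p = 0.0164), -1.11 ± 0.22 in TR (limma adjusted p = 0.00399) and -1.27 ± 0.20 in WT (limma adjusted p = 0.000269). In KO against WT, 1 of the 15 fell at P60, the elongation factor Eef2 (-1.14 ± 0.34, limma adjusted p = 0.0355, and -0.25 without the second P60 KO array). At P4 limma called 0, with 1 at an unadjusted p under 0.05. Over all tested probe sets limma called 14.3% in P60 KO against WT and 0.355% in P4 KO. The list's median KO minus WT was 0.06 at P60 and 0.23 at P4, beside -2.20 and -3.18 for Snhg6 96156_at. Of 15 genes of microRNA processing and action, 5 were tested. In P60 KO 1 was called, beside the same 14.3%: Ago2, an argonaute, was higher (0.91 ± 0.25, limma adjusted p = 0.0224, and 0.78 without the second P60 KO array). In P4 KO 0 were called, with 0 at an unadjusted p under 0.05.

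Over the 21 arrays, which share groups and scan days, the set-apart probe sets correlated. The choice of genes for a KO offset fixes such values, so nothing is read from them. Pearson's r was 0.91 between Snhg6 96156_at and AI506816 97197_r_at, 0.86 between AI506816 and Mir686 101741_at, and -0.83 between AI506816 and Adk 97690_at. Outside the members, Prdx2, a peroxiredoxin, was closest to Snhg6 (0.87), and its KO minus WT was -1.32 at P60 and -1.31 at P4. Rab6a, a Golgi GTPase, was closest to Mir686 (0.94), at -1.55 and -1.20. The brightest probe sets of Adk and Ctsc, which were not set apart, resembled other genes: 93512_f_at went with Znrf2, B3gnt2 and Crebrf (0.93 to 0.94), and 101019_at with Gabpa, Npr3 and Eif3a (0.89 to 0.91). Chosen after the values were seen, Adk 97690_at was closest to Dtymk, a thymidylate kinase (0.87), and Ctsc 101020_at to Glo1, a glyoxalase (-0.84). Between the probe sets of 1 gene, r was 0.93 for Ctsc 101020_at and 161251_f_at, 0.19 for 101020_at and 101019_at, and 0.14 for Adk 97690_at and 93512_f_at. It was -0.06 between Snhg6 96156_at and Ctsc 101019_at, which was not set apart.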

How the data were processed

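Sciatic nerve RNA pools were hybridised to 21 Affymetrix arrays of 1 chip type after a double round of in vitro transcription, per the labels. The authors normalized the arrays in dChip by smoothing spline and deposited a model-based expression index, an intensity on a linear scale, per the labels (version and probe model not stated there). The scanner setting files that the authors deposited, whose values have no common unit, gave chip type and scan day (10 days), per the file headers.

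From the deposited index, values were raised to a floor of 54.7 and log2 was taken. Testing took the 10994 probe sets that exceeded the floor on 2 or more arrays and left out 1428. Means of the 8 groups were fitted with limma 3.58.1 in R 4.3.3 (trend, 13 residual degrees of freedom, two-sided), with Benjamini-Hochberg adjustment at 0.05 over all tested probe sets in each comparison. The fit was tested on simulated data. Errors after ± are standard errors for log2 changes and SDs for index values. Each replicate is a pool, and p-values reflect differences between pools, not single mice. Same-numbered arrays correlated from -0.351 to 0.531 in their deviations, with all 3 pairs over 0.1 only for P4 TR and WT (0.193, 0.531 and 0.441). The main fit used no pairing for any comparison, and replicate number entered only as an alternative block.

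The members and lists were chosen with earlier results of these data known. Named genes were every member probe set, the 3 most alike probe sets of the brightest probe set of each member, neighbours without overlap at both ages, and up to 3 called genes per list and comparison, with the exceptions stated. Symbols are those of the platform annotation (10833 probe sets with 1 symbol, 396 with several, 1193 with none), and all 5 members matched RefSeq. Alternatives were the floor, the filter, quantile and median scaling, the groups fitted, scan day as a fixed or random block, a replicate block, the number and probe sets of neighbours, and leaving out each array. Counts per list without the second P60 KO array, and the Schwann cell sum without Pmp22, were chosen after seeing the data.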

Additional observations from a re-analysis of the deposited data

How the results depend on the processing

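Of 556 age changes of member probe sets under other settings, 524 kept their side of the threshold, 20 lost a call and 12 gained one. In 42 the sign turned, none of them past the threshold before or after. Of 854 mutant minus WT differences 747 moved by less than the spread and 106 by more, and 46 turned sign, 1 of them between groups without overlap: Ctsc 101020_at at P60, 0.289 in KO minus WT under a fixed block for scan day. In KO minus WT at P60 Ctsc 161251_f_at (1.17 in that fit), Ctsc 101019_at, Adk 93512_f_at and Adk 101647_at also turned under 1 or more settings. A fit of the compared groups alone, with fewer arrays to estimate the spread, called 1968 probe sets for age in KO, 615 in TG and 90 in TR, against 3179, 1216 and 1321 in the fit of all groups. In mutant minus WT it called 10, 0 and 6 for P4 KO, TG and TR and 5, 113 and 79 at P60, against 39, 61 and 48, and 1568, 418 and 517. Under that fixed block limma called 1212 for age in KO, 30 in TR and 582 in WT (1638 without the block), 6, 5 and 16 for P4 KO, TG and TR and 5 for P60 KO. As a random block it called 642 for age in TG, 17 for P4 KO, 875 for P60 KO and 174 for P60 TG. The causes were not tested. The fixed block could not be fitted for comparisons with P60 TG. Leaving out each array gave 1274 (without the second P60 KO array) to 3247 for age in KO, 565 to 1031 in TG, 615 to 1950 in TR and 1076 to 1370 in WT, 13 to 46, 25 to 74 and 16 to 80 for P4 KO, TG and TR, 183 (without the second P60 KO array) to 2325, 121 to 394 and 334 to 476 at P60, and 5 to 7 member probe sets without overlap at both ages in KO, 1 to 2 in TG and 1 to 2 in TR. The replicate block moved no count by over 1.5 times and changed 1 member call, AI506816 97197_r_at with age in WT (-0.72, adjusted p = 0.041). Signal near the floor limits Snhg6 161635_f_at, AI506816 93180_at and Adk 97690_at, and 2 arrays limit each P60 mutant.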

Other observations

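In a set drawn after the values were seen, 27 of the 10994 tested probe sets (0.246%) differed by over 1 on the log2 scale without overlap between KO and WT at both ages, 22 lower and 5 higher in KO. Of the 27, 4 were members, as the choice of genes favours: Snhg6, AI506816, Mir686 and Ctsc. Of 25 with a chromosome, on 15 chromosomes, 1 lay on that of Pmp22, which held 8.93% of all tested probe sets. Lower ones included Hsd17b7, a hydroxysteroid dehydrogenase gene (-1.84 at P60, -2.31 at P4), Mvk, the mevalonate kinase gene (-1.89, -1.41), Fdps 99098_at, of farnesyl diphosphate synthase (-2.95, -1.56), and Nsdhl 93868_at, of a sterol dehydrogenase (-2.03, -1.10). These were picked from the 27 by eye, and no list of such genes was counted. Serpinc1, which encodes antithrombin, was at -2.07 and -2.85, and Rnase4, a secreted ribonuclease, at -3.37 and -1.69. Higher ones included Chl1, a cell adhesion molecule gene (1.49, 1.13).

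Ahcy, whose product yields the adenosine that Adk phosphorylates, also had a probe set in that set. Its probe set 96026_at averaged 84.0 ± 32.9 in P60 KO (SD, n = 2) against 242 ± 75.0 in P60 WT (SD, n = 3), and 168 ± 45.6 in P4 KO against 376 ± 151 in P4 WT (SD, n = 3 each). The brightest Ahcy probe set, 96025_g_at, averaged 3065 ± 156 in P60 KO against 3187 ± 401 in P60 WT, and 2763 ± 162 in P4 KO against 3241 ± 560 in P4 WT. The third, 96024_at, was lower in P60 KO, at 269 ± 138 against 567 ± 97.4 in P60 WT. At P4 it averaged 762 ± 100 in KO against 651 ± 38.9 in WT. The probe sets of this gene too thus read differently.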
